A study of Homo sapiens with 4 samples.

Results

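Broad open regions were the 2965 nuclear regions, of 125985 in all, whose end minus start was 2000 bp or more in the ATAC-seq peak table of A375 cells. ATAC-seq uses the Tn5 transposase to cut and tag accessible DNA, and A375 is an established human melanoma cell line with an activating BRAF mutation. Cells had been grown for 48 h with 1 mM octanoate, the salt of a medium-chain fatty acid, or with isopropanol, its vehicle, and each group had 2 libraries, 4 in all. The labels name a single cell line, no genetic change and no shared treatment, and they do not say whether replicates were separate cultures, so a p-value may measure technical spread only. Width alone chose the members, and no fold change or read count was used. For comparison, 22805 regions of 800 to under 2000 bp were taken, in bins of similar mean normalized read count.

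As background, most open regions are the size of a single nucleosome-free gap, where a transcription factor or the transcription machinery has displaced a histone core. Long open stretches form where several such gaps lie side by side, as at CpG island promoters and at genes that are strongly transcribed or poised, and peak callers merge neighbouring gaps into 1 region. In a melanoma cell driven by BRAF, the ERK kinase pathway is continuously active and keeps its own target genes, among them its feedback inhibitors, transcribed.

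All values below come from 1 comparison table made by the authors with DESeq2. The mean normalized read count, called mean signal here, is over all 4 libraries, and the log2 fold change is octanoate over vehicle by the table's title, with the standard error that the authors' model gave. That direction cannot be checked without values per library. The table has 0 columns per library, so no value for a single library can be shown and libraries that stand apart cannot be looked for. The labels give an average depth over the libraries, and the depth of each is unknown. Regions with a mean signal of at least 63.8 entered the authors' adjustment for multiple testing and are called tested. A region is called changed at an adjusted p under 0.05. As a check of the cell type, 4 of 7 melanocyte lineage markers had an open region within 1 kb of a start, among them MITF, the master transcription factor of pigment cells, with a broad one. MITF had a mean signal of 168, PMEL, DCT and SOX10 had 34.2, 30.0 and 15.7, and MLANA, TYR and TYRP1 had no region. Of markers of other cells, 1 of 5 keratinocyte, 2 of 6 blood, 0 of 4 endothelial and 4 of 4 fibroblast genes had a region there, and none of those was broad. The fibroblast genes had 10.8 to 130, the highest in a 1905 bp region at PDGFRA. These markers therefore do not set the melanocyte lineage apart from fibroblasts.

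Broad regions were a small part of the list and a larger part of its signal. They made up 2.35% of nuclear regions, 10.4% of the bases covered and 14.2% of the summed mean signal. Their median width was 2403 bp, with quartiles of 2161 and 2875 bp, and the widest spanned 16427 bp. In the authors' deposited table their median mean signal was 128, with quartiles of 88.0 and 185, against 50.0 for regions of 800 to under 2000 bp. Per kb the 2 classes were closer, with a median mean signal of 49.6 per kb in broad regions and 43.8 in the narrower class. Of broad regions, 2636 of the 2965, or 88.9%, were tested, against 35.5% of the narrower class. Among broad regions, width went with mean signal (Spearman's rho 0.36 over 2965 regions), while rho was 0.0017 between width and signal per kb.

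Most broad regions lay where genes begin. Starts were taken from RefSeq promoter windows where the gene had one, and otherwise, for 4191 of 20033 protein-coding genes, either end of the gene was counted. By this rule 2079 broad regions, or 70.1%, overlapped or lay within 1 kb of a start (95% exact binomial interval 68.4% to 71.8%, which covers counting error only and treats regions as independent). The share was 35.5% for regions of 800 to under 2000 bp and 11.7% over all nuclear regions. Narrower regions of similar mean signal, weighted by bin as described below, lay at a start in 61.9% of cases. The share was 64.2% in the 1042 narrowest broad regions, 80.4% in the 484 between 3000 and 4000 bp and 62.5% in the 24 of 6000 bp or more. Of the others, 395 overlapped the span of a protein-coding gene, in part or in full, which is called within a gene here. The remaining 491 lay outside genes, at a median of 44.6 kb from the nearest one. Exactly 2 starts lay inside 436 broad regions and 3 or more inside 241. These counts include alternative starts of 1 gene and both ends of a gene without a listed start.

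**Figure D1:**
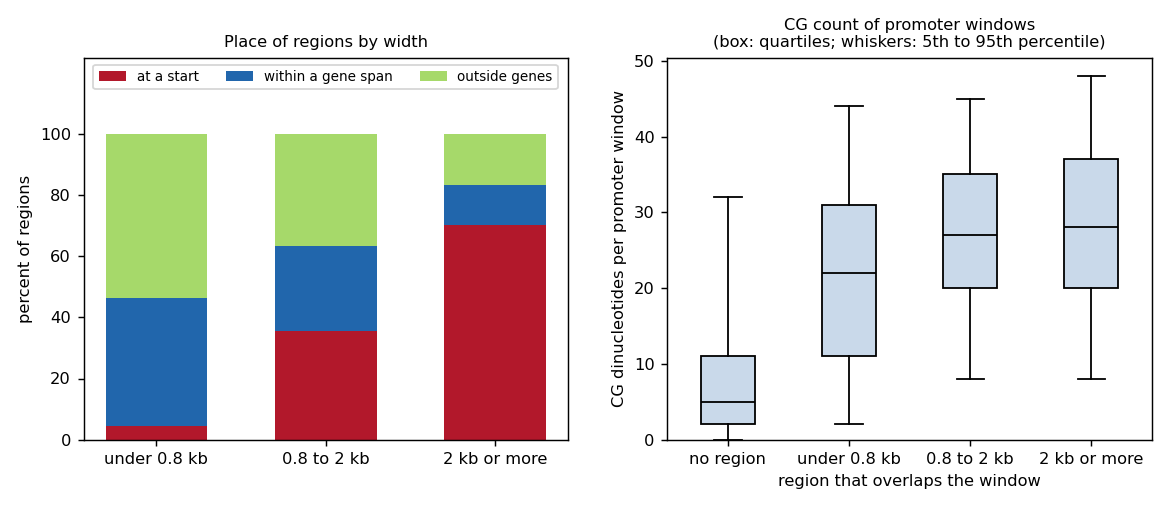
Left, percent of regions at a start, within a gene span and outside genes, for 3 width classes. Right, CG dinucleotides in promoter windows of 300 bases, grouped by the widest region that overlaps the window. The share at a start is 70.1% in regions of 2 kb or more, and the CG medians of the upper 2 width classes are 28 and 27.

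The upstream sequences of 4 promoters inside such regions are shown for the widest regions and for a changed one, and they do not stand for the class. The genes are those with a listed start inside the 3 widest broad regions of this kind, and PEX10, whose region had the smallest p among changed regions with a listed start inside. NR2F1 encodes an orphan nuclear receptor of neural crest and nervous system development, MAGEA4 a cancer-testis antigen, DUSP6 the phosphatase that switches ERK off, and PEX10 a ubiquitin ligase that builds peroxisomes. Each line gives the 250 bases before the start from RefSeq (GRCh38.p14), 5′ to 3′ on the gene's strand, with CG dinucleotides in capitals. Where a gene had several starts in the region, the one nearest its middle was used. The coordinates are chr5:93582972-93583221 (plus strand) for NR2F1, chrX:151915987-151916236 (plus) for MAGEA4, chr12:89352502-89352751 (minus) for DUSP6 and chr1:2413828-2414077 (minus) for PEX10.
NR2F1: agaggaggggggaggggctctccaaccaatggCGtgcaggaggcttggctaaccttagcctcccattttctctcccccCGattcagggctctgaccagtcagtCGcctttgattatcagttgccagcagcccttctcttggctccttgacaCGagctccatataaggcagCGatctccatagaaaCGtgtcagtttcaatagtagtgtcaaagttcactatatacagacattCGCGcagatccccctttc
MAGEA4: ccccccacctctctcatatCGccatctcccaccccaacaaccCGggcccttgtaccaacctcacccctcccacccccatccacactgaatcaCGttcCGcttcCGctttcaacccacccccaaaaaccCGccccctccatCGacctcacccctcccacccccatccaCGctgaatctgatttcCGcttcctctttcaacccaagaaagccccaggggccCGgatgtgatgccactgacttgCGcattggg
DUSP6: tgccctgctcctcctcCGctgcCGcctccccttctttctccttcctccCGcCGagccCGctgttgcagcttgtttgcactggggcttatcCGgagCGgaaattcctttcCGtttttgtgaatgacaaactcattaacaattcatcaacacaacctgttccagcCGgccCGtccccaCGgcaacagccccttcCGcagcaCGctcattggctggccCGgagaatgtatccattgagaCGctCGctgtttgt
PEX10: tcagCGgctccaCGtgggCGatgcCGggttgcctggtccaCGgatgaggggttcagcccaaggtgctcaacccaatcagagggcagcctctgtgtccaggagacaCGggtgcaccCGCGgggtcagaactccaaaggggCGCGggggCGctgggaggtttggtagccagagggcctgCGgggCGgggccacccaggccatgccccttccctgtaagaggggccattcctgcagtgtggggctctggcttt

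These 250 bases held 8 CG dinucleotides for NR2F1, 11 for MAGEA4, 16 for DUSP6 and 13 for PEX10, and their GC content ran from 52.4% (NR2F1) to 67.6% (PEX10). With the 50 bases after the start included, the windows held 12, 13, 19 and 13 CG dinucleotides in the same order, all below the lower quartile of 20 for windows in broad regions. All 4 windows held a CCAAT box, the binding site of the NF-Y factor, on 1 or the other strand, against 33.7% of windows in broad regions. Each start lay well inside its region: that of DUSP6 was 3549 and 3266 bp from the region's ends.

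Over all 22182 promoter windows of protein-coding genes, CG content differed more between windows with and without a region than between the upper width classes. The 2724 windows that overlapped a broad region had a median of 28 CG dinucleotides per 300 bases and a GC content of 68.0%. Windows in regions of 800 to under 2000 bp had 27 and 66.3%, those in regions under 800 bp 22 and 63.0%, and windows with no region 5 and 52.3%. Of 8 motifs searched on both strands, the ETS motif CCGGAAGT stood in 3.41% of windows in broad regions, 8.70% in the narrower class and 5.34% of all windows. ETS factors such as GABPA bind it at promoters of housekeeping genes. The TATA box, TATAAA, stood in 6.31%, 4.20% and 9.47% of the same classes. The GC box GGGCGG (74.9%, 73.9% and 56.3%), CCAAT (33.7%, 35.8% and 34.7%) and the AP-1 motif TGANTCA (4.19%, 4.07% and 6.15%) differed little between the broad and the narrower class. So did the E-box CACGTG (9.40%, 9.84% and 8.34%), the CRE TGACGTCA (2.57%, 3.16% and 2.26%) and the NRF1 motif (2.02%, 2.31% and 1.501%). Overlaps between motifs were not removed. A match is a string of letters in a window, not a bound site, and windows of 1 gene can overlap.

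Genes that respond to ERK and to acute stimuli often had a broad region at a start. Of 20033 protein-coding genes, 2378, or 11.9%, had one, and this was 16.3% of the 14584 genes with any open region there. In the list of ERK feedback and output genes, 10 of 13 had a broad region (76.9%), and in the list of AP-1 and immediate early genes 12 of 18 (66.7%). Neural crest and undifferentiated melanoma genes followed with 8 of 18 (44.4%), then housekeeping genes with 8 of 20, developmental transcription factors with 10 of 26, TGF-beta and YAP targets with 5 of 13 and chromatin regulators with 7 of 19. The stress list had 3 of 17, the melanocytic list 2 of 16, fatty acid oxidation and PPAR genes 2 of 26 (7.69%) and ribosomal protein genes 0 of 16. All 16 ribosomal protein genes had a narrower region at a start. The lists were drawn up with earlier results on these data known, no test of these shares was made, and nothing is called particular to a list.

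**Figure D2:**
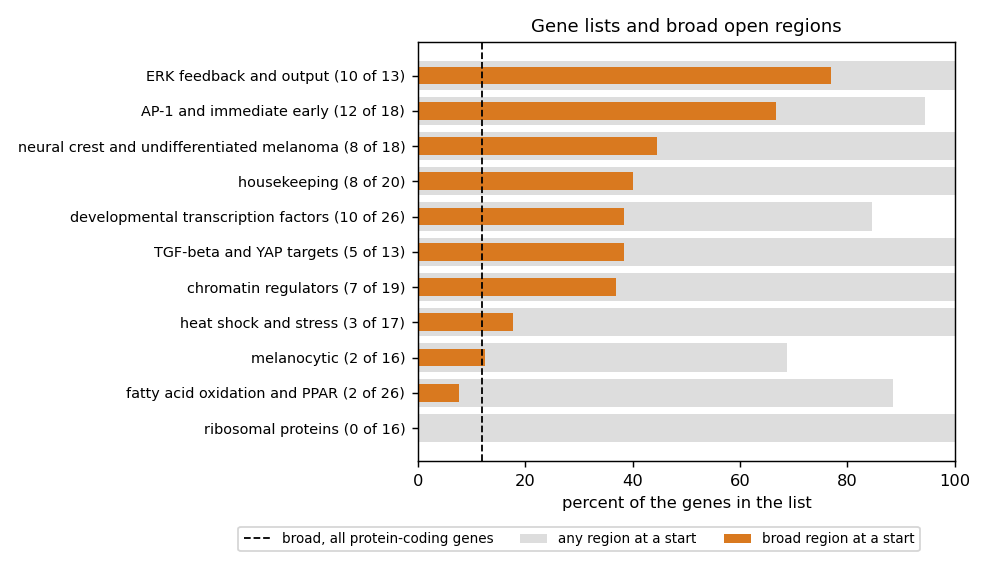
Percent of the genes in each of 11 lists with any open region (grey) and with a broad region (orange) at a start, with the numbers of genes in brackets. The dashed line is the 11.9% of all protein-coding genes with a broad region; the ERK list reaches 76.9% and the ribosomal protein list 0.

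Within the ERK list, 2 phosphatases that act on ERK had the longest regions. The region of DUSP6 (chromosome 12, 89348952 to 89355767) was 6816 bp wide, and that of DUSP5, another ERK phosphatase, was 5775 bp wide. In the authors' deposited table the DUSP6 region had a mean signal of 437 and a log2 fold change of 0.17 (standard error 0.12), and the DUSP5 region 327 and 0.18 (0.12). The Sprouty genes SPRY2, SPRY4 and SPRY1, which dampen the signal from growth factor receptors to ERK, had regions of 4785, 4345 and 3314 bp, and SPRED1 and SPRED2, which recruit neurofibromin to RAS, of 4009 and 2847 bp. ETV1 and ETV5, ETS factors downstream of ERK, had regions of 5330 and 3098 bp, with log2 fold changes of -0.07 (standard error 0.12) and 0.30 (0.15) per the authors' deposited table. None of the 10 was called changed, and their median log2 fold change of 0.14 per the authors' deposited table was close to the 0.15 of all broad regions.

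Immediate early genes, which are transcribed within minutes of a stimulus, showed the same form. JUN, a subunit of AP-1, lay in a region of 6162 bp on chromosome 1 (58779833 to 58785994) with a mean signal of 508, and its log2 fold change per the authors' deposited table was 0.28 (standard error 0.10, adjusted p 0.153, DESeq2). FOS, its partner, had a region of 3358 bp (0.34, standard error 0.17), and IER5 one of 4127 bp with 0.37 (standard error 0.12, adjusted p 0.0952, DESeq2) per the authors' deposited table. EGR1, EGR2 and EGR3, zinc finger factors, had regions of 3739, 3973 and 2861 bp at a start or gene end, FOSL2 3709 bp, JUND 3161 bp, JUNB 3060 bp, and MYC 3803 bp. All 12 fold changes of this list were above 0 per the authors' deposited table, from 0.03 (KLF6) to 0.37 (IER5), with a median of 0.22, against 80.7% of all broad regions above 0 and a median of 0.15. None was called changed. Over all lists together, 0 of 64 tested broad regions at starts were called (DESeq2). A called one that overlaps EGR1 away from its start is described below. Of the 64, 5 had an unadjusted p under 0.05, all higher: those of JUN, IER5, FOS, ETV5 and TBX3. Over all tested nuclear regions 1.02% were called and 14.8% were higher at an unadjusted p under 0.05, and none of the lists' counts is read as a result beyond this background.

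Of the melanocytic list only MITF (3071 bp, log2 fold change 0.12, standard error 0.17) and EDNRB, the endothelin receptor of melanoblasts (2312 bp, 0.19, standard error 0.18), had broad regions at a start per the authors' deposited table. In the list of neural crest and undifferentiated melanoma genes 8 had one: TFAP2A (4350 bp), WNT5A (3874 bp), SOX9 (3295 bp at a gene end), ZEB1 (2665 bp), FOXD3 (2644 bp), TFAP2B (2284 bp), SOX2 (2245 bp) and TNC (2103 bp). Their log2 fold changes ran from -0.02 (SOX2) to 0.26 (TFAP2B) per the authors' deposited table, and 0 of the 6 tested were called (1.02% over all tested nuclear regions). For fatty acid use, the pathway that octanoate enters, the list gave PLIN2, which coats lipid droplets (3531 bp, -0.05, standard error 0.16), and ACSL3, a long-chain acyl-CoA synthetase (2767 bp, 0.12, standard error 0.19), per the authors' deposited table, and neither was called.

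In the other lists 0 broad regions were called. Housekeeping genes with a broad region had a median log2 fold change of 0.09, from -0.08 (HSP90AB1, a cytosolic chaperone) to 0.30 (TBP, the TATA-binding protein), and GAPDH, the glycolytic enzyme, was at -0.0027 with a 3301 bp region, per the authors' deposited table. The 6632 bp region counted for ACTB, beta-actin, lay 22 bp outside a gene end taken without strand, so it may not be at the start. Chromatin regulators such as KMT2A, a histone H3 methyltransferase (4544 bp, 0.12), and ARID1B, a SWI/SNF subunit (4307 bp, 0.01), had a median of 0.09 per the authors' deposited table. Developmental transcription factors ran from -0.11 (IRX3) to 0.37 (TBX3, standard error 0.13) with a median of 0.13, again per the authors' deposited table. TGF-beta and YAP targets had a median of 0.13 and included CCN2 (3857 bp, 0.24), a matricellular protein, and SKIL (2845 bp, 0.10), a relative of SKI, per the authors' deposited table. The stress list held GADD45A (4234 bp, 0.22), SQSTM1, the autophagy receptor p62 (3995 bp, 0.23), and CDKN1A, the cell cycle inhibitor p21 (2406 bp, 0.10), per the authors' deposited table.

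With octanoate, 32 of 2636 tested broad regions were called changed per the authors' deposited table (adjusted p under 0.05, DESeq2), all of them higher. That is 1.21%, and the background over all 11184 tested nuclear regions is 1.02%, also all higher, so the share lies near the background. In the tested regions of 800 to under 2000 bp it was 0.951%, before any matching on signal. At an unadjusted p under 0.05, 405 broad regions were higher (15.4%, background 14.8%) and 2 were lower (0.0759%, background 0.107%). Tested broad regions had a median standard error of 0.18, so an unadjusted p of 0.05 took a log2 difference of 0.35. After the median log2 fold change of all tested regions, 0.19, was subtracted, 1 broad region passed (0.0379%, background 0.0447% higher and 0.00894% lower, narrower class 0.0494% higher and 0.0124% lower), and no broad region was called lower. At an unadjusted p under 0.05, 57 were then higher (2.16%, background 3.17%) and 44 lower (1.67%, background 1.01%).

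As a class, broad regions had a lower median fold change than the other width classes. Their median log2 fold change was 0.15 per the authors' deposited table (quartiles 0.03 and 0.27), that of all nuclear regions 0.23, and that of regions of 800 to under 2000 bp 0.17. Relative to the median of all nuclear regions the value for broad regions was therefore -0.078. Against the narrower class alone the difference in medians was -0.021. In 10 bins of mean signal the broad regions had the lower median in 10, and the weighted difference from the narrower class was -0.063, from a median of 0.14 against 0.21. The lowest bin was poorly matched: median mean signals were 49.8 in broad and 35.1 in narrower regions, and standard errors 0.30 and 0.36. Among tested regions alone, where median standard errors differed by at most 0.0093 in any bin of any comparison by position, the difference was -0.064 and broad regions were lower in 10 of 10 bins. The spread of this difference between replicates cannot be measured from a table without values per library, and no test of it was made.

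**Figure D3:**
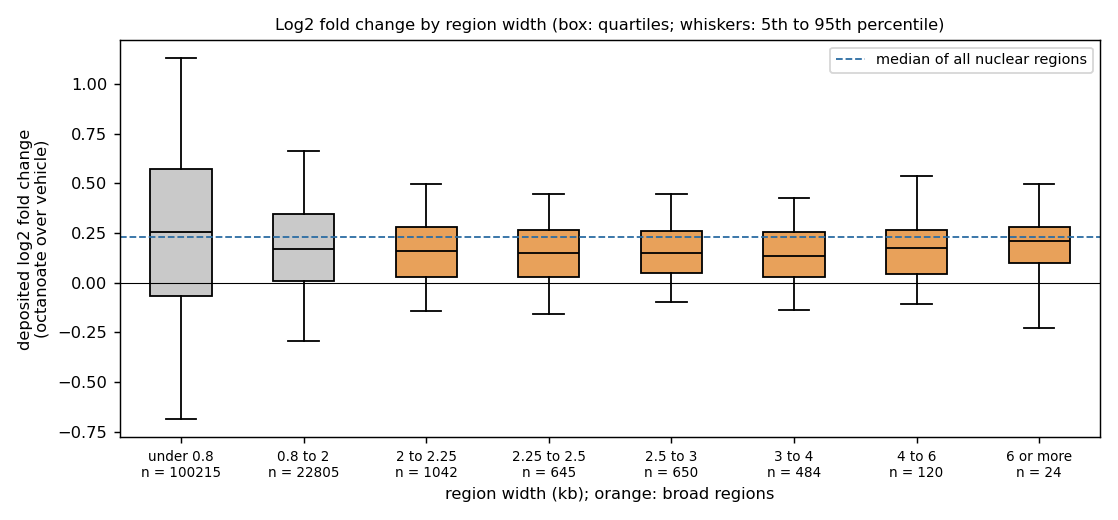
Deposited log2 fold change by region width; boxes are quartiles with the median, whiskers the 5th and 95th percentiles, and the dashed line the median of all nuclear regions, 0.23. Medians of the broad classes (orange) lie between 0.14 and 0.21, and the boxes narrow from regions under 0.8 kb to broad ones.

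The lower fold change of broad regions was not limited to promoters. Among regions at a start, broad ones had a weighted median of 0.13 and narrower ones of 0.19 in bins of similar mean signal, a difference of -0.059 with the broad class lower in 10 of 10 bins. Away from starts the values were 0.21 and 0.25, a difference of -0.046, lower in 10 of 10 bins, though by 0.0017 in the closest one, and in 9 of 10 among tested regions alone. Over 5 Mb from chromosome ends the difference was -0.066, and within 5 Mb of an end -0.036, with 7 of 10 bins lower. Between the lowest and the highest bin of mean signal the medians went from 0.11 to 0.22 in broad regions and from 0.15 to 0.28 in the narrower ones. Among tested regions weighted in the same way, 1.21% of broad and 2.52% of narrower regions were called. When regions were matched on mean signal per kb instead, the difference shrank to -0.028, still with 10 of 10 bins lower.

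**Figure D4:**
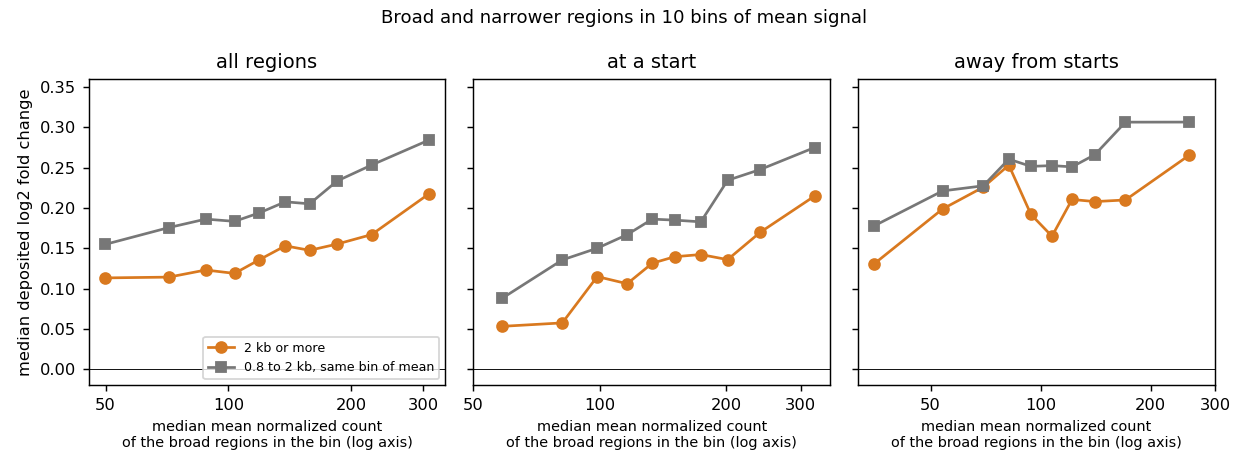
Median deposited log2 fold change of broad regions (orange) and of regions of 0.8 to 2 kb (grey) in 10 bins of mean signal, for all regions, regions at a start and regions away from starts. The orange points lie below the grey ones in all bins, by a weighted -0.063, -0.059 and -0.046.

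Among broad regions, those away from starts had the higher median fold change. The 2079 at a start had a median log2 fold change of 0.13 per the authors' deposited table and the other 886 of 0.21. At a start 12 of 1934 tested regions were called (0.62%, background of all tested regions at a start 0.317%, narrower class 0.196%), and away from starts 20 of 702 (2.85%, background 2.04%, narrower class 1.94%). These shares of the narrower class are not matched on signal, and with tested narrower regions weighted to the mean signal of the broad ones they were 0.79% at a start and 4.70% away from starts, both above the broad shares. Position along the chromosome went with the calls as well. Within 5 Mb of a chromosome end 18 of 256 tested broad regions were called (7.03%, background 4.37%, narrower class 3.64%), and elsewhere 14 of 2380 (0.588%, background 0.688%, narrower class 0.691%). Weighted to the same mean signal, the narrower class had 10.9% near the ends, from bins with as few as 8 regions, and 1.26% elsewhere, again above the broad shares. Median log2 fold changes of broad regions were 0.27 near the ends and 0.14 elsewhere. The matched shares were not tested. The first 5 Mb of chromosome 1, singled out after the calls were seen, held 5 of them among 16 tested broad regions (31.2%, background 16% of the 50 tested regions of any width there). Without matching on signal, Spearman's rho between width and log2 fold change was -0.012 over 2965 broad regions. In bins of similar mean signal, however, the 628 regions of 3000 bp or more differed from regions of 800 to under 2000 bp by -0.0999, against -0.063 for all broad regions. By the number of CG dinucleotides, regions whose promoter windows held 0 to 9, 10 to 19, 20 to 29, 30 to 39 and 40 or more had median log2 fold changes of 0.16, 0.11, 0.13, 0.13 and 0.15. Copy number, which differs along the chromosomes of a cancer line, was not analysed here.

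The 32 called regions had log2 fold changes from 0.36 to 1.73 with a median of 0.61 per the authors' deposited table, and 2 at least doubled. The largest rise was on chromosome 8 (142191609 to 142193870), in a 2262 bp region that overlaps a noncoding gene and lies 18.2 kb from TSNARE1, at 1.73 (standard error 0.27, adjusted p 3.07e-06, DESeq2) with a mean signal of 64.6 per the authors' deposited table. It was the 1 broad region that passed after centring, with an adjusted p of 0.000199. The other doubling was a 2580 bp region on chromosome 3 (132253205 to 132255784), 61.6 kb from ACP3, at 1.04 (standard error 0.27, adjusted p 0.019, DESeq2) per the authors' deposited table. Both lay just above the lowest tested mean signal of 63.8.

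The 12 called regions at starts had log2 fold changes of 0.36 to 0.85 per the authors' deposited table. A 3014 bp region on chromosome 19 (56837161 to 56840174) overlaps ZIM2 and PEG3, neighbouring imprinted genes that are expressed from the paternal copy, and it rose by 0.85 (standard error 0.18, adjusted p 0.00192, DESeq2) per the authors' deposited table. SKI, a repressor of SMAD proteins in TGF-beta signalling, held a 5782 bp region at a gene end (chromosome 1, 2227017 to 2232798) that rose by 0.56 (standard error 0.13) per the authors' deposited table. The region of PEX10, whose promoter is printed above, rose by 0.64 (standard error 0.14, chromosome 1, 2411673 to 2414831), and that of ZBTB38, a zinc finger protein that binds methylated DNA, by 0.60 (standard error 0.13, chromosome 3, 141366307 to 141369040) per the authors' deposited table. BHLHE40, a transcriptional repressor tied to the circadian clock and hypoxia, had a strong 3730 bp region with a mean signal of 499.9 and a rise of 0.43 (standard error 0.11) per the authors' deposited table. ANKRD10 (0.42), EOLA1 (0.53) and ING1, a reader of methylated histone H3 (0.36, standard error 0.098, mean signal 698), rose as well per the authors' deposited table. HSPB8, a small heat shock protein (0.71, standard error 0.19), and DNAJC3, a chaperone of the endoplasmic reticulum (0.43, standard error 0.12), are named here after their values per the authors' deposited table were seen.

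Among called regions that overlap a gene away from starts, the strongest signal was in a 4009 bp stretch of PRKCZ, an atypical protein kinase C (chromosome 1, 2132108 to 2136116). It rose by 0.54 (standard error 0.11, adjusted p 0.00108, DESeq2) at a mean signal of 451 per the authors' deposited table. EGR1 had a second broad region, 2006 bp wide and 3718 bp from its start (chromosome 5, 138469197 to 138471202), that rose by 0.93 (standard error 0.23, adjusted p 0.0165, DESeq2) per the authors' deposited table. This second region overlaps the gene at least in part, and how much of it lies beyond the gene was not analysed here. The region at the EGR1 start gave 0.23 (standard error 0.12, adjusted p 0.371, DESeq2), with no test of the difference between the 2 regions. Regions within FAM53A (0.98), C10orf143 (0.84) and PRKAG2, a regulatory subunit of the energy sensor AMPK (0.80, standard error 0.19), also rose per the authors' deposited table. Outside genes, regions rose 16.5 kb from OR14L1 (0.62), 17.1 kb from NOX4 (0.63), 5.28 kb from TNFRSF14 (0.66), 69.0 kb from ASB7 (0.59), 146 kb from HS3ST3A1 (0.69), 365 kb from USP24 (0.65) and 1.26 kb from GPIHBP1 (0.87), per the authors' deposited table. These nearest genes give a position only.

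**Figure D5:**
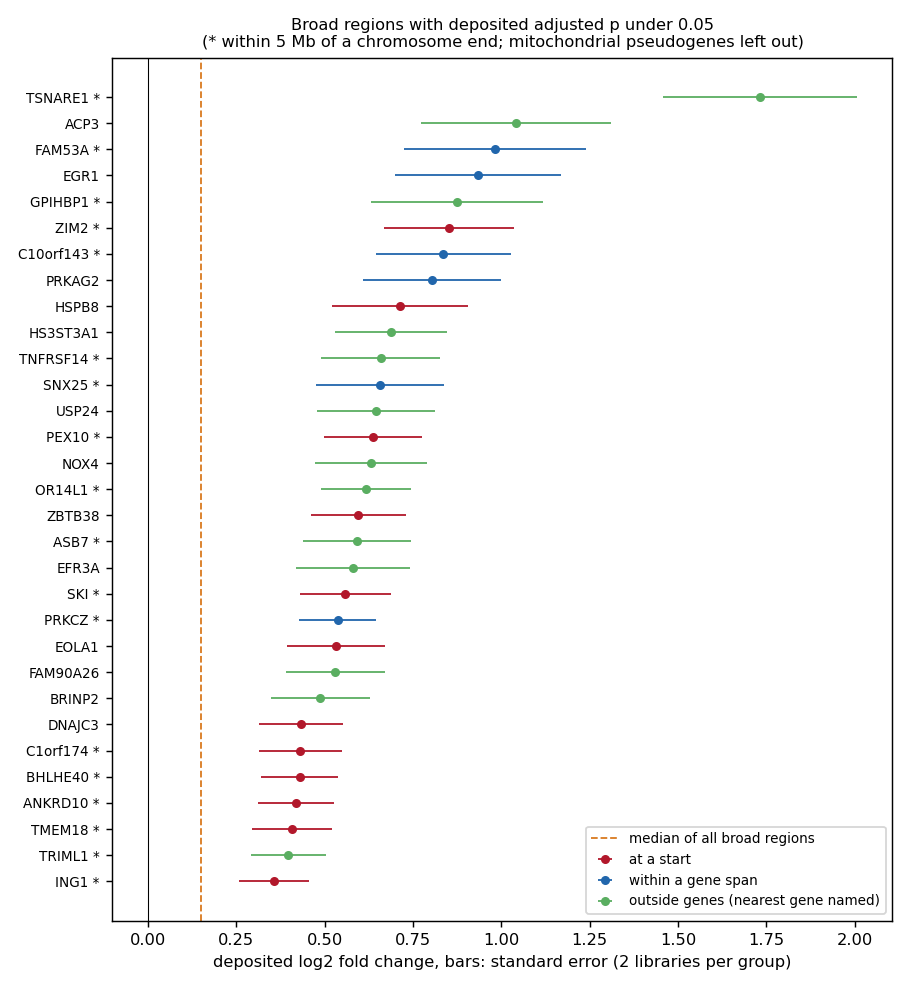
Deposited log2 fold change with its standard error for 31 broad regions called changed, those on mitochondrial pseudogenes left out, named by the gene at the start, around the region or nearest to it. All lie above the dashed median of broad regions, 0.15, and 18 carry the star for the 5 Mb next to a chromosome end.

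At the lower end no broad region passed the threshold. The lowest log2 fold changes among tested broad regions per the authors' deposited table were those of regions within TRPM3, a cation channel (-0.51, standard error 0.21, adjusted p 0.218, DESeq2), and within SLC24A2 (-0.48, standard error 0.23). Then came regions 6.02 kb from MMP2, a matrix metalloproteinase (-0.43, standard error 0.22), within IGFBP7, a secreted growth factor binding protein (-0.42, standard error 0.25), and 391 kb from FANCL (-0.42, standard error 0.25), also from the authors' deposited table. All 5 lay away from starts and had mean signals of 74.5 to 95.6.

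The widest regions were of several kinds. The first in width, 16427 bp on chromosome 21 (8432131 to 8448557), covers a 45S ribosomal RNA gene, and 4 broad regions of chromosome 21 hold ribosomal RNA genes or pseudogenes, those next in width (16353 and 11964 bp) included. Their mean signal was 3.98 to 12.0, at most 0.931 per kb, and none was tested. These genes are near-identical copies, so the counts of a single copy are uncertain. The widest tested region, 10596 bp on chromosome 4 (188399888 to 188410483), overlaps no RefSeq gene, lies 249 kb from TRIML1 and rose by 0.40 (standard error 0.11, adjusted p 0.0277, DESeq2) per the authors' deposited table. Those of NR2F1 (7656 bp, chromosome 5, 93578663 to 93586318) and PCDH10, a protocadherin of neural tissue (7638 bp, chromosome 4, 133146028 to 133153665), had log2 fold changes of 0.23 and 0.10 (standard error 0.12 each) per the authors' deposited table. The region of MAGEA4 (6887 bp) was broad and thin, with 10.3 reads of mean signal per kb. Of 20 tested regions of 6000 bp or more, 15 lay at a start by the rule above, that near a gene end of ACTB included. Among them were those of PTCH1, the Hedgehog receptor, NR4A3, an immediate early nuclear receptor, IRS2, an insulin receptor substrate, and NR2F2. These genes were named after their widths were seen.

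The highest signals lay on nuclear copies of mitochondrial DNA. Mitochondrial pseudogenes, relics of mitochondrial sequence inserted into chromosomes, overlapped 10 broad regions, and these included 4 of the 5 strongest of all. In the authors' deposited table the region on chromosome 1 from 628986 to 635021 had a mean signal of 5314, or 880 per kb, and holds MTND1P23, MTCO1P12 and others. The next were on chromosome 17 (22521212 to 22524692, MTRNR2L1) with 2353 and on chromosome 5 within PCBD2 (134923259 to 134928608) with 1524, per the authors' deposited table. The fourth, on chromosome 5 from 100046262 to 100054724, is 8463 bp wide and had 697, and ING1 with 698 was the 1 ordinary promoter among the 5. Together the 10 held 2.47% of the signal of broad regions. Reads of the mitochondrial genome can align to such copies, so their counts are uncertain. All 10 log2 fold changes were above 0, as were 80.7% of all broad regions. They ran from 0.13 to 0.47 with a median of 0.34, beside 0.10 (standard error 0.082) for the mitochondrial genome itself, per the authors' deposited table. Of the 10, 2 were too weak to be tested, and the other 8 had a median of 0.28. The part of mitochondrial reads in them was not tested. Without regions that hold mitochondrial pseudogenes 31 broad regions were called.

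Noncoding starts and weak members complete the class. A listed start of a noncoding gene lay inside 586 broad regions, 484 of which were also at a protein-coding start, and in 102 it was the 1 kind of start there. Those 102 had a median log2 fold change of 0.13 per the authors' deposited table, like regions at protein-coding starts, and the 784 regions with neither kind had 0.22. A further set of 329 broad regions was too weak to be tested, with a median mean signal of 50.7 and a median log2 fold change of 0.11 per the authors' deposited table. At the width limit, the members of exactly 2000 bp lay 1.84 kb from HES1, a Notch target (mean signal 141, log2 fold change 0.27), at PDCD4 (196, 0.10) and within PDZD2 (36.8, -0.15), per the authors' deposited table. Regions of 1999 bp, just outside, lay within PPARGC1A (mean signal 40.0, log2 fold change -0.26), at ICMT (85.8, 0.16) and at CDH7 (55.8, -0.03), per the authors' deposited table.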

How the data were processed

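Octanoate was compared with vehicle in 4 ATAC-seq libraries of A375 cells, 2 in each group, grouped by sample title. The authors deposited 1 table, and per the submitters' processing notes Trim Galore, cutadapt, FastQC, Bowtie2, Picard, MACS2, featureCounts, DESeq2 and bedtools 2.29.1 were used with the build hg38; their settings, any shift for the Tn5 cut and the merging of regions are not given in the sources used here. How regions were merged decides their width. Per the file headers, the authors give a mean normalized count (a signal over all libraries), a log2 fold change with its standard error, a Wald score, a p-value and an adjusted p. The deposited score equalled the ratio of the fold change to its error to within 2.31e-14. The adjusted p-value the authors deposited equalled Benjamini-Hochberg adjustment over 11185 rows, including the mitochondrial genome, and the 114801 others, listed as 1, were treated as not tested.

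From this table, widths, medians and counts were computed with Python 3.11.15, pandas 2.3.3 and SciPy 1.17.1. Starts in the table were taken as counted from 0, and coordinates are given from 1. Broad regions and regions of 800 to under 2000 bp were put in 10 bins at the deciles of the broad regions' mean signal, and differences of bin medians were averaged with the number of broad regions as weight. Benjamini-Hochberg adjustment and the bin comparison were run on simulated data, where fold change fell with mean signal rather than rising as observed. That check allowed errors about as large as the smaller matched differences given here, so it does not bear on those. Genes, starts and 300-base promoter windows (250 before and 50 after a start) came from RefSeq, GRCh38.p14, and all 202 list genes matched by symbol. A region took the gene whose start it overlapped or lay within 1 kb of, otherwise the shortest gene span it overlapped, otherwise the nearest gene; whether it lies in an exon or intron was not analysed here.

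The named regions, 1 per gene at, around or nearest to the region, were the 5 widest, the 5 with the highest mean signal, the called ones with the 20 smallest p, the 5 highest and 5 lowest log2 fold changes among tested ones, 3 on each side of the width limit, and list genes with a broad region at a start. The named regions and the lists were chosen with earlier results of these data known. Alternatives changed the threshold, the adjustment, centring, the width limit, the matching and the distance to a start. The result of 1 called region is not reported here.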

Additional observations from a re-analysis of the deposited data

How the results depend on the processing

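The count of 32 called broad regions, all higher, depended on the threshold and on the zero of the scale. It was 9 at an adjusted p of 0.01, 83 at 0.1, 6 with Benjamini-Hochberg over all nuclear regions, 9 over regions at or above the 25th percentile of mean signal, 2 when a doubling or halving was required and 1 after centring on the tested median. It was 56, 16 and 10 at width limits of 1500, 2500 and 3000 bp, 31 on autosomes and, added after the data were seen, 14 over 5 Mb from chromosome ends. All of these calls were higher. Raising the width limit lowers the count by construction. Adjusting over more regions lowered it here, which depends on the p-values of the regions added. Leaving out the chromosome ends removed 256 of 2636 tested regions and 18 of 32 calls, and the cause was not tested. Of the 20 called regions named by p, 6 stayed past the threshold over all nuclear regions and 1 after centring.

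The median log2 fold change of 0.15 became -0.078 when centred on the median of all nuclear regions, by construction, 0.137 over 5 Mb from chromosome ends and 0.138 at 3000 bp. The matched difference of -0.063 kept its sign in every setting run. It was -0.028 matched on signal per kb, -0.021 without matching, -0.046 away from starts and -0.0999 for 3000 bp against 800 to 2000 bp; the cause was not tested. The share at a start, 70.1%, was 73.5% within 5 kb, 62.1% at 1500 bp, 79.8% at 3000 bp and 59.3% with listed starts alone (added later), where 4191 genes have none.

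No paired analysis was possible because single libraries have no columns in the deposited file. Leaving out replicates, count tests and other scalings of the libraries were not run for that reason. Signal limits which regions can be called: 329 broad regions lay under the lowest tested mean.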

Other observations

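Broad regions were spread over 23 chromosomes, where they made up between 1.20% (chromosome 22) and 3.10% (chromosome 14) of the listed regions. Taken from the authors' deposited table, their median log2 fold change was lower than that of all regions of the same chromosome on each of the 23. The lowest medians were 0.048 on chromosome 22 (15 broad regions), 0.081 on chromosome 21 (25) and 0.084 on chromosome 4 (172), and the highest was 0.24 on chromosome 15 (72), per the authors' deposited table. Chromosome X, with 88 broad regions, had 0.20 for broad and 0.21 for all regions per the authors' deposited table, the closest pair.

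Few broad regions had another broad region close by, and the spacing to be expected from their number was not computed. The median gap to the nearest other broad region was 249 kb, and 177 of 2965 (5.97%) had another within 10 kb. In the more numerous class of 800 to under 2000 bp, the gap to another of that class was 31.3 kb and the share 22.4%. The gap to the nearest listed region of any width was 4474 bp in the median for broad regions and 5556 bp for regions of 800 to under 2000 bp, and 29.6% of broad regions had a listed region within 2 kb.

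A microRNA gene lay inside 42 broad regions. Of these, 38 were tested and 0 were called (DESeq2), 7 had an unadjusted p under 0.05, all higher, against 1.02% called and 14.8% higher over all tested nuclear regions, and their median log2 fold change was 0.089 per the authors' deposited table.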
